A study of Ipomoea batatas with 12 samples.

Results

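Number 14 of the sweetpotato (Ipomoea batatas) gene identifiers comprises the genes whose names begin with Ibat.Brg_v3.14 followed by a letter from A to F, G and a running number. Members were the identifiers of this number with at least 10 counts summed over 12 RNA-seq libraries, and 6421 of its 12484 identifiers met the rule, out of 225111 genes in the whole table. Single members were thus chosen by their summed counts alone, while number 14 as a whole was selected on the measured difference between skin and flesh. All contrasts below use the same libraries, so none of its values as a whole is independent of that selection. The libraries came from storage roots harvested 120 days after planting: 3 of skin from the natural mutant (MT), 3 of skin from its wild-type parent line M1-125 (WT), 3 of flesh from MT and 3 of flesh from WT. All 4 groups shared the treatment label normal and a field at one experimental farm; the series is titled as a search for regulators of skin colour, but the labels give neither the gene altered in MT nor the colour of either line. The replicates are called biological, with no statement that each came from separate plants, so p-values reflect only how far these libraries spread, which may be technical in part.

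The storage root of sweetpotato is a swollen root. Its flesh is mostly storage parenchyma laid down by several cambia, which fills with starch and storage proteins. Its skin is a periderm, in which a cork cambium produces suberised cork cells that limit water loss and entry of pathogens, and red or purple skins hold anthocyanins in the outer layers. Sweetpotato is a hexaploid, so a gene usually has several closely similar copies on the members of one chromosome group. The identifiers run over 15 numbers and 6 letters, equal to the base chromosome number and the ploidy of the species. They may thus name chromosome, haplotype and order along it, but no coordinates were in the table. Windows, runs of neighbouring genes and pairs of possible copies below follow the identifiers alone. They describe positions or copies only if that reading holds. No source used here paired the identifiers with gene names, so no role is given to any of them and the tissue labels were not checked against marker genes. How reads were shared among near-identical copies is not given in the sources used here, so the value of any single identifier is uncertain to that extent.

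The 6 letters contributed similar numbers of members, from 973 on F to 1259 on B. Of the 6421 members, 4307 (67.1%) passed the filter on low counts and were tested, between 625 on D and 866 on B. The 2114 untested members had a median of 28 counts over the 12 libraries and held 1.02% of the counts of number 14. At the edge of the rule lay 106 members with exactly 10 counts and, just outside it, 84 identifiers with exactly 9; in both sets the median identifier had counts in 4 libraries. A further 4225 identifiers of number 14 had no count in any library. A gene that was present in only 1 group could pass the filter through that group alone, so shares of tested members describe the tested set and not all members.

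Total counts per library ran from 8507461 to 10715197 in MT skin, 9620235 to 15065079 in WT skin, 15893593 to 18258638 in MT flesh and 17197979 to 20276417 in WT flesh. Skin was therefore sampled less deeply, and a count of 0 in skin is the weaker statement. Levels are given as CPM, counts relative to the TMM-scaled library total in the usual CPM unit, and 3 counts corresponded to between 0.13 CPM in the deepest library and 0.397 CPM in the shallowest. In whole tissue, fewer cells of a type and less RNA per cell cannot be told apart.

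Number 14 took a smaller part of the counts in skin than in flesh, on every letter and in both lines. Its share was 3.71%, 3.68% and 3.69% of the counts in the MT skin libraries and 3.63%, 3.61% and 3.62% in the WT skin libraries. In flesh the shares were 4.4%, 4.42% and 4.42% in MT and 4.78%, 4.74% and 4.77% in WT. All 6 skin libraries lay below all 6 flesh libraries, and the 3 MT flesh libraries lay below the 3 WT flesh libraries. The means were 3.69% ± 0.0126 in MT skin, 3.62% ± 0.00597 in WT skin, 4.41% ± 0.0116 in MT flesh and 4.76% ± 0.0231 in WT flesh (SD, n = 3 each). These shares are relative to all other genes of a library, which also changed. Among the 15 numbers the ratio of skin to flesh shares of number 14, 0.837 in MT and 0.76 in WT, was the second lowest after number 08, at 0.781 in MT and 0.725 in WT, and some other numbers also lay below 1. The ratio of MT to WT in flesh, 0.927, was likewise second to that of number 08, at 0.924.

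**Figure D1:**
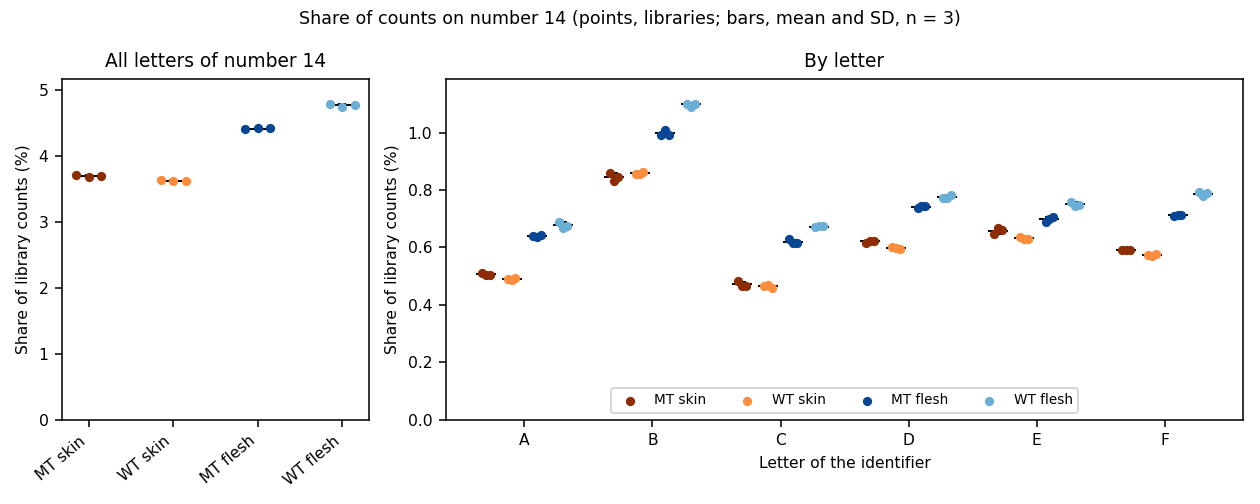
Share of each library's counts that fell on number 14 (vertical axis, percent), over all letters on the left and by letter on the right; points are libraries and bars the mean and SD of 3. In the left panel the skin libraries lie between 3.61% and 3.71% and the flesh libraries between 4.4% and 4.78%, and within flesh MT lies below WT on each letter.

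By letter, the relative difference of skin from flesh in MT ran from -5.83% on E to -24% on C. In WT it was wider on all 6 letters, from -15.8% on E to -30.9% on C. Within flesh, the relative difference of MT from WT ran from -4.56% on D to -9.68% on F, and the library ranges of the lines did not overlap on any letter. Within skin, the MT share was 1.32% to 4.05% higher on A, C, D, E and F and 1.48% lower on B, where the ranges of the 3 libraries overlapped, as they did on C.

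Many members took part in the lower share in MT flesh. Of the 6421, 3735 had a lower and 2567 a higher mean share of counts in MT flesh than in WT flesh, and the net difference was -0.35 percentage points. Such counts over all genes are not given here, and a lean to lower shares was not particular to number 14. With libraries scaled by totals, the median log2 fold change in MT flesh was -0.09 over all tested genes and -0.127 for number 14. Without the 10 members that lost most it was -0.252 points, and without these and the 10 that gained most, whose sums largely cancel, -0.331 points. For tissue, skin minus flesh was -0.718 points in MT and -1.14 points in WT. Without the 10 members that were most below flesh it was -0.425 points in MT and -0.801 points in WT, and without these and the 10 most above, -0.703 points in MT and -1.07 points in WT.

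Tissue values of number 14 were set beside those of the other numbers. Number 14 was put forward for its lean to flesh. The tissue values are therefore a description, with no test of that label or of the number as a whole. In MT, 907 of the 4307 tested members were higher and 1195 lower in skin than in flesh by edgeR's quasi-likelihood test at an adjusted p of 0.05. This is 21.1% higher and 27.7% lower, against 25.5% and 25.2% of all 80351 tested genes, of which 50.7% were called in either direction. In WT, 901 were higher and 1184 lower, or 20.9% and 27.5%, against 26.3% and 24.1% of all tested genes and 50.4% in either direction. Among the 15 numbers, number 14 had the smallest percentage of genes higher in skin in both lines, the second largest percentage lower in MT and the largest in WT. Its median log2 fold change of skin over flesh was -0.191 in MT and -0.193 in WT, against -0.058 in MT and -0.02 in WT over all tested genes. The other numbers lay between -0.215 and 0.01 in MT and between -0.153 and 0.043 in WT, with number 08 as the lowest of them in both lines. When libraries were scaled by their totals and not by TMM, calls in MT were 737 higher and 1509 lower (32.8% of calls higher instead of 43.1%) and in WT 678 and 1563 (30.3% instead of 43.2%). The median of all tested genes moved with them, to -0.336 in MT and -0.355 in WT, and the ranks of the medians of number 14, second lowest of 15 in MT and lowest in WT, stayed as they were.

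**Figure D2:**
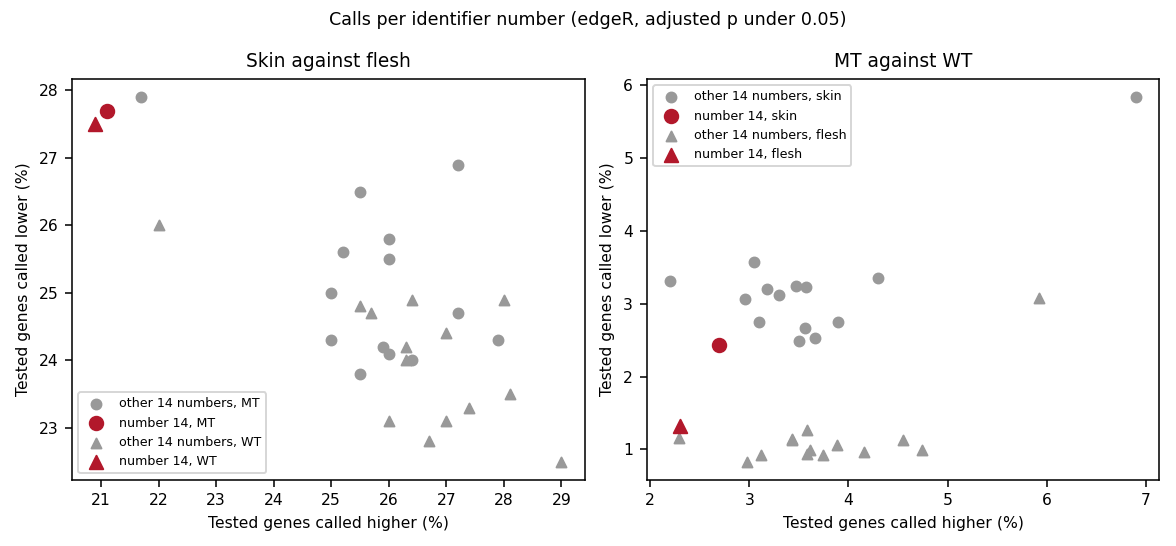
Percentage of tested genes called higher (horizontal axis) and lower (vertical axis) for each of the 15 identifier numbers, for skin against flesh on the left (circles MT, triangles WT) and MT against WT on the right (circles skin, triangles flesh). Number 14, in red, lies at 21.1% higher and 27.7% lower in MT and 20.9% and 27.5% in WT on the left, and at 2.69% and 2.44% in skin and 2.3% and 1.32% in flesh on the right.

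The lean to flesh was seen at every level of expression. Tested genes were divided by mean log2 CPM over all libraries into those under 0, 0 to 2, 2 to 4 and 4 and over. In each of these classes, in both lines, the median log2 fold change of skin over flesh was lower for number 14 than for other genes. Among the 541 members at 4 and over, 33.8% were higher and 43.3% lower in MT skin, against 37.6% and 37.1% of other genes of that class. In WT skin the corresponding values were 29.9% and 45.8%, against 36.9% and 38%.

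Most tissue calls were found in both lines, whose contrasts share no library. Of tested members, 718 were higher in skin in both lines, 16.7% against 21% of all tested genes, and 923 were lower in both, 21.4% against 18.7%. The 923 were 77.2% of the members lower in MT skin and 78% of those lower in WT skin. Opposite calls in the lines were made for 13 members, 0.302% against 0.437%. The 923 had a median deposited gene length of 1986 bases and the 718 one of 1791 bases, against 1995 and 1693 bases for all genes of these classes, and their median levels over all libraries were 3.27 and 4.03 CPM per kilobase. All 6 letters took part, with 134 to 178 members lower in skin in both lines and 96 to 163 higher; on B these were nearly equal, at 165 lower and 163 higher.

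Among called members whose mean log2 CPM was at least 1, genes at the extremes of the tissue contrast were present in one tissue and at or near 0 counts in the other. Ibat.Brg_v3.14FG005390 had 297, 311 and 292 CPM in the MT skin libraries and 309, 338 and 339 CPM in the WT skin libraries, and 0 counts in all 6 flesh libraries. It was at least 5570-fold higher in skin than flesh in MT and at least 7040-fold in WT, with 3 counts over the flesh group as the floor. Ibat.Brg_v3.14FG016640 had 183, 188 and 191 CPM in MT skin and 200, 182 and 199 CPM in WT skin, with 0 counts in all flesh libraries. The skin values of the lines overlapped for 14FG016640, and for 14FG005390 one MT library lay above the lowest WT library. The bounds for 14FG016640 were at least 3470-fold in MT and at least 4150-fold in WT.

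Ibat.Brg_v3.14FG019130 showed the reverse, with 8, 0 and 0 counts in the MT skin libraries, none in any WT skin library, 130, 123 and 134 CPM in MT flesh and 282, 286 and 278 CPM in WT flesh. Against WT flesh, WT skin was thus at least 2960-fold lower. In flesh itself, MT stood at 129 CPM ± 5.77 and WT at 282 CPM ± 4.35 (SD, n = 3 each), a 2.19-fold fall (log2 fold change -1.13, SE 0.16, adjusted p = 0.00093 by edgeR's test). Its 8 MT skin counts were all in replicate 1. Without that library the MT tissue contrast rests on a group at 0 counts, and its fitted log2 fold change moved to -13.94 against -8.66 with all libraries.

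Ibat.Brg_v3.14DG016650 had the same deposited length as 14FG019130, 755 bases, and a like pattern. It had 0, 7 and 4 counts in MT skin and none in WT skin, and stood at 14.3, 16.4 and 18.8 CPM in MT flesh and 31.2, 36.7 and 32.3 CPM in WT flesh. Its WT skin level was at least 351-fold lower than its WT flesh level. All MT flesh libraries were below all WT flesh libraries, and the fall was 2.03-fold (log2 fold change -1.02, SE 0.26, adjusted p = 0.045 by edgeR's test). Another member of that length, on letter B within 3000 running numbers, had no such contrast, with 1296 counts over MT skin, 2407 over WT skin, 1341 over MT flesh and 2028 over WT flesh. Ibat.Brg_v3.14BG001270 stood at 2, 4 and 0 counts in MT skin and 3, 7 and 4 counts in WT skin, against 39.4, 39.6 and 39.9 CPM in MT flesh and 25.2, 28.4 and 28.3 CPM in WT flesh. Skin was 164-fold below flesh in MT (log2 fold change -7.36, and -8.3 without MT skin replicate 2) and 60.5-fold below it in WT. All skin libraries of this gene lay below all flesh libraries.

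Members near absent from flesh made up a smaller percentage than over all genes, while those near absent from skin were too few to compare. A level above 10 CPM in MT skin and in WT skin, with no more than 3 counts summed over flesh, was found for 14 tested members, 0.325% against 0.572% of all tested genes, with a median of 57.5 CPM in MT skin and 51.9 CPM in WT skin. The reverse held for 2 members, 0.0464% against 0.0909%, at 10.5 and 11.2 CPM in MT flesh and between 15.2 and 16.8 CPM in WT flesh. Skin had fewer counts, which makes near absence from skin the easier condition to meet.

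Along the running number, the pooled lean to flesh was largest between 6000 and 8000. Windows of 2000 running numbers with at least 20 tested members were compared, 63 in all over the 6 letters. In the window from 6000 to 8000 the median log2 fold change of skin over flesh was below the median of all tested genes on all 6 letters in both lines, between -0.598 and -0.328 in MT and between -0.774 and -0.319 in WT. Of its 478 tested members, 65 were higher and 148 lower in MT skin, and 70 were higher and 153 lower in WT skin. On letter C, where the window reached its lowest median, 3 of 58 members were higher and 20 lower in MT, and 6 higher and 17 lower in WT. The window was singled out after its values were seen. The window from 0 to 2000 was below on 5 letters in MT and on 6 in WT.

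For comparison, 113 windows of the other numbers had at least 20 tested genes on each letter, and 1 of these lay below on all 6 letters in both lines. Of all 121 such windows, the pooled median of the window from 6000 to 8000 on number 14 was the lowest in MT, at -0.43, and the second lowest in WT, at -0.465. The lowest on other numbers were -0.375 in MT and -0.485 in WT. The next window on number 14, from 8000 to 10000, was below on 5 of 6 letters in both lines and above on B. The window from 18000 to 20000 was also below on 5 letters, with a pooled median of -0.332 in MT and -0.282 in WT. At the far end, from 24000 to 26000, only B and E had enough members, and both leaned to skin, with medians of 0.11 and 0.351 in MT and 0.433 and 0.504 in WT. On E the window from 12000 to 14000 had the lowest median in MT, -0.691 over 23 tested members, against -0.238 in WT. On D the window from 20000 to 22000 leaned to skin as well, at 0.707 in MT and 0.428 in WT, while the same window on the other 5 letters was below all genes.

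**Figure D3:**
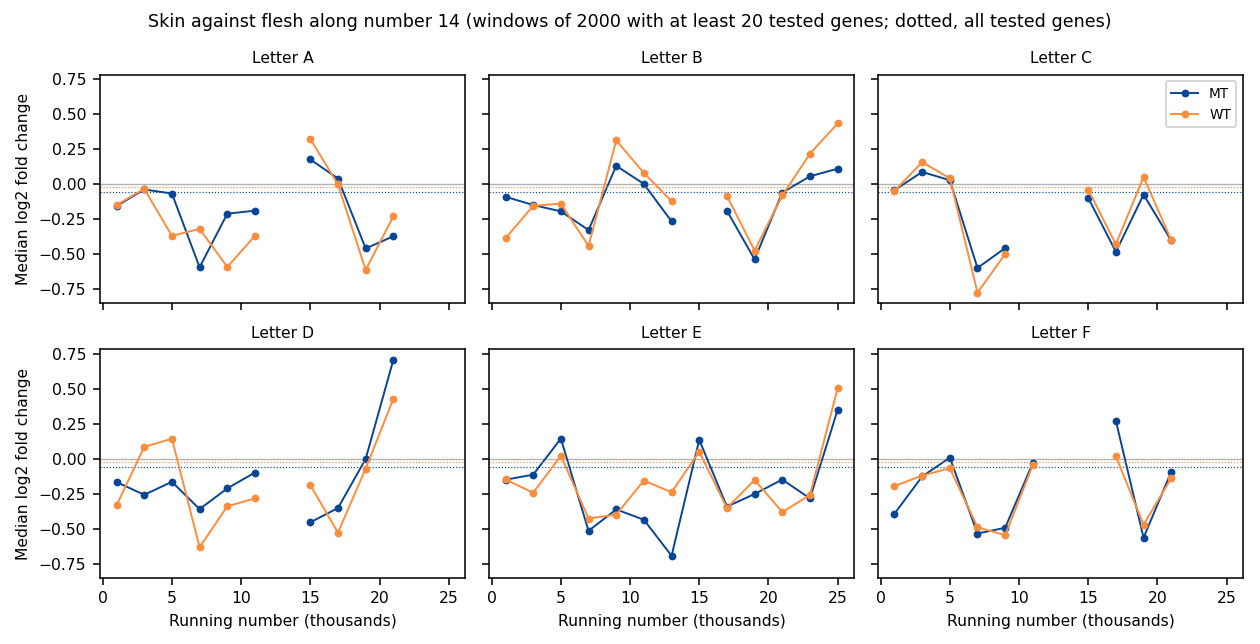
Median log2 fold change of skin over flesh (vertical axis) in windows of 2000 running numbers (horizontal axis, running number divided by 1000) on each letter, with MT in blue and WT in orange; dotted lines give the medians over all tested genes, and windows with under 20 tested members are left out. The window from 6000 to 8000 lies below both dotted lines on each letter.

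The counts followed the medians in some windows and not in others. Members between 6000 and 8000 held 0.331%, 0.306% and 0.322% of the counts in MT skin and 0.313%, 0.318% and 0.309% in WT skin, against 0.462%, 0.458% and 0.457% in MT flesh and 0.537%, 0.538% and 0.545% in WT flesh. Skin libraries lay below flesh libraries without overlap, and MT flesh below WT flesh. Members between 8000 and 10000 held 0.244% ± 0.00255 in MT skin and 0.236% ± 0.00432 in WT skin, against 0.485% ± 0.0112 in MT flesh and 0.513% ± 0.00526 in WT flesh (SD, n = 3 each). Together with the window from 18000 to 20000, these windows accounted for 19.9%, 24.3% and 22.3% of the net difference between skin and flesh in WT, while holding 10.9%, 8.22% and 10.6% of the members. Members between 12000 and 14000 instead held more of the counts in skin, by 0.022 points in MT and 0.0164 points in WT. Their pooled medians, over the 2 letters with enough tested members, were -0.267 in MT and -0.171 in WT. Between 16000 and 18000 the skin share in MT was higher by 0.0139 points, with a pooled median of -0.204. Members between 0 and 2000, 9.14% of all, accounted for 3.55% of the net difference in WT.

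Runs of neighbouring tested genes with the same call in both lines were short. The longest run lower in skin had 5 to 7 genes on the 6 letters of number 14, the longest on E between running numbers 23930 and 24050. On the 84 number-letter blocks of the other numbers it had 2 to 9, with a median of 5. The longest run higher in skin had 3 to 5 genes on number 14, against 3 to 11 with a median of 6 elsewhere.

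Between the lines in skin, number 14 had among the smallest percentages of called genes of the 15 numbers. By edgeR's test 116 tested members were higher and 105 lower in MT skin, or 2.69% and 2.44%, against 3.64% and 3.21% of all tested genes and 6.85% in either direction. Among the 15 numbers this was the second smallest percentage higher and the smallest percentage lower. The rises were small, with a median of 1.55-fold and 37 of 116 at least 2-fold, and the falls larger, with a median of 2.54-fold and 62 of 105 at least 2-fold. The same order held over all tested genes, where 923 of 2923 rises and 1391 of 2579 falls were at least 2-fold. The median log2 fold change was 0 for number 14 and for all tested genes, and by letter it lay between -0.005 on B and 0.057 on E. DESeq2 called 209 higher and 160 lower. Scaling by totals gave 89 higher and 120 lower, so the more frequent direction depended on the scaling. The number higher was 70 without WT skin replicate 2 and 73 without WT skin replicate 1.

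Among called members whose mean log2 CPM was at least 1, with library values that do not overlap, the limit for naming genes here, the largest falls in MT skin were in genes whose flesh difference did not pass the test. Ibat.Brg_v3.14CG000790 stood at 1.5, 0.453 and 1.06 CPM in MT skin and 19.7, 18.2 and 19.2 CPM in WT skin, with no overlap. In flesh it had 16.8, 13.8 and 16.5 CPM in MT and 9.46, 13.3 and 10.9 CPM in WT. It fell 18.7-fold in skin (log2 fold change -4.23, SE 0.28, adjusted p = 8.4e-07 by edgeR's test), while in flesh the log2 fold change was 0.48 (adjusted p = 0.27). Ibat.Brg_v3.14AG001770 stood at 2.04, 1.93 and 1.72 CPM in MT skin and 14.3, 21.6 and 18.3 CPM in WT skin, a 9.5-fold fall (log2 fold change -3.25, SE 0.21, adjusted p = 6.7e-07). In flesh its libraries overlapped, at 20.3, 20.6 and 25.9 CPM in MT and 17.5, 21.9 and 20.4 CPM in WT (log2 fold change 0.16, adjusted p = 0.78). In MT, skin lay below flesh by 15.4-fold for 14CG000790 and 11.7-fold for 14AG001770. In WT, skin was 1.7-fold above flesh for 14CG000790, and 14AG001770 had a log2 fold change of -0.14.

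Under the same limit, the largest rises in MT skin were in genes with few counts in WT skin. Ibat.Brg_v3.14BG006720 had 10, 24 and 5 counts in the MT skin libraries and 2, 2 and 0 in the WT skin libraries, 1.48 CPM ± 1.09 and 0.121 CPM ± 0.11 (SD, n = 3 each). It was mainly a flesh gene, with 158, 153 and 170 CPM in MT flesh and 231, 285 and 289 CPM in WT flesh. It rose 11.2-fold in skin (log2 fold change 3.49, SE 0.67, adjusted p = 0.0059) and fell 1.68-fold in flesh (-0.75, SE 0.15, adjusted p = 0.0079). Without MT skin replicate 2, which held 24 of its 39 MT skin counts, the log2 fold change in skin was 2.73. It lies in the window from 6000 to 8000 described above.

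Ibat.Brg_v3.14FG017970 was the other, at 6.96, 4.87 and 3.97 CPM in MT skin and 0.216, 0.147 and 1.39 CPM in WT skin, with 12 of its 16 WT skin counts in replicate 3. The rise was 10.2-fold (log2 fold change 3.35, SE 0.43, adjusted p = 0.00029 by edgeR's test), and the log2 fold change was 4.86 without WT skin replicate 3 and 2.75 without WT skin replicate 2. In flesh the difference was far larger, with 191, 178 and 189 CPM in MT against 7, 4 and 4 counts in the WT libraries. The flesh rise was 767-fold (log2 fold change 9.58, SE 0.33, adjusted p = 8.1e-11).

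In flesh, number 14 had few rises and a median below that of every other number. By edgeR's test 99 tested members were higher and 57 lower in MT flesh, or 2.3% and 1.32%, against 3.75% and 1.21% of all tested genes and 4.96% in either direction. The percentage higher was the second smallest of 15, after number 08 at 2.29%. The percentage lower was the second largest, though close to that of all tested genes and of number 09, at 1.26%. Of the calls, 63.5% were higher on number 14 and 66.4% on number 08, against 75.7% over all tested genes. The median log2 fold change was -0.025, against 0 over all tested genes and between -0.011 and 0.015 for the other numbers, and it was below 0 on all 6 letters, from -0.05 on D to -0.007 on F. It was -0.001 without WT flesh replicate 3, so the shift rests in part on that library. These flesh libraries also entered the tissue difference on which number 14 was selected, so its ranks here are a description. Among the 541 members with a mean log2 CPM of 4 and over, 7.21% were higher and 5.36% lower, against 13.1% and 4.06% of other genes of that class.

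Letters differed in their balance. F had 12 members higher and 16 lower in MT flesh, while D had 15 higher and 4 lower and B 25 higher and 11 lower; these differences between letters were not tested. Scaled by totals, 79 members of number 14 were higher and 108 lower in MT flesh, 42.2% higher instead of 63.5%, and the medians were -0.127 for number 14 and -0.09 for all genes. The median of number 14 remained the lowest of the 15. DESeq2 called 143 higher and 107 lower. The number lower was 28, 31 and 30 without MT flesh replicates 1, 2 and 3 and 27 and 32 without WT flesh replicates 2 and 3, and the number higher was 63 without WT flesh replicate 1.

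A few members were switched on in MT flesh. Ibat.Brg_v3.14DG014840 stood at 43.3, 45.5 and 45.7 CPM in MT flesh and had 0 counts in all 3 WT flesh libraries, at least 960-fold higher (adjusted p = 5.9e-11 by edgeR's test). In skin it stood at 5.25, 5.21 and 4.9 CPM in MT and 0.863, 0.662 and 0.811 CPM in WT, a 6.62-fold rise (log2 fold change 2.73, SE 0.21, adjusted p = 9.5e-06). The tissue order thus differed between the lines, with skin below flesh in MT and above it in WT.

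Ibat.Brg_v3.14AG018240 behaved like 14FG017970 and had the same deposited length, 2307 bases. It stood at 138, 110 and 129 CPM in MT flesh against 3, 8 and 2 counts in the WT flesh libraries, 596-fold higher (log2 fold change 9.22, SE 0.27, adjusted p = 1.6e-11). In skin it had 8.89, 5.78 and 7.68 CPM in MT and 1.4, 1.1 and 0.579 CPM in WT, a 7.09-fold rise (log2 fold change 2.82, SE 0.28, adjusted p = 3e-05 by edgeR's test). For all 3 of these genes the MT libraries lay above the WT libraries in both tissues, and MT flesh was the highest group. Equal length and nearby running numbers do not show that 14AG018240 and 14FG017970 are copies of a gene, and if they are, reads could have been exchanged between them.

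The whole set with at most 3 counts over WT flesh and a rise in MT flesh comprised 6 tested members, 0.139% against 0.285% of all tested genes. Their MT flesh means ran from 0.142 to 44.8 CPM with a median of 0.425 CPM, so 14DG014840 stood at the top of it. The opposite, at most 3 counts over MT flesh and a fall, held for 2 members (0.0464% against 0.0585%), at 0.44 and 0.935 CPM in WT flesh. In skin, 12 members fell to at most 3 counts over MT, 0.279% against 0.346%, and 5 rose in MT where WT had at most 3, 0.116% against 0.108%.

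Within the limit for naming, the largest falls in MT flesh were in genes that averaged under 10 CPM in flesh. Ibat.Brg_v3.14FG012280 had 4, 6 and 3 counts in MT flesh and 38, 24 and 18 in WT flesh, 0.231 CPM ± 0.0679 and 1.27 CPM ± 0.574 (SD, n = 3 each). It fell 5.25-fold there (log2 fold change -2.39, SE 0.41, adjusted p = 0.0023), while the skin libraries of the lines overlapped, at 10.3, 16 and 17.6 CPM in MT and 17.6, 16.8 and 15.6 CPM in WT. Ibat.Brg_v3.14DG017590 had 11, 16 and 19 counts in MT flesh and 309, 45 and 167 counts in WT flesh, with a wide spread among the WT libraries, and fell 10-fold (log2 fold change -3.33, SE 0.58, adjusted p = 0.0027 by edgeR's test). Without WT flesh replicate 1 the log2 fold change was -2.53. Its skin libraries overlapped, at 3.64, 2.83 and 2.51 CPM in MT and 2.8, 2.5 and 3.24 CPM in WT.

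**Figure D4:**
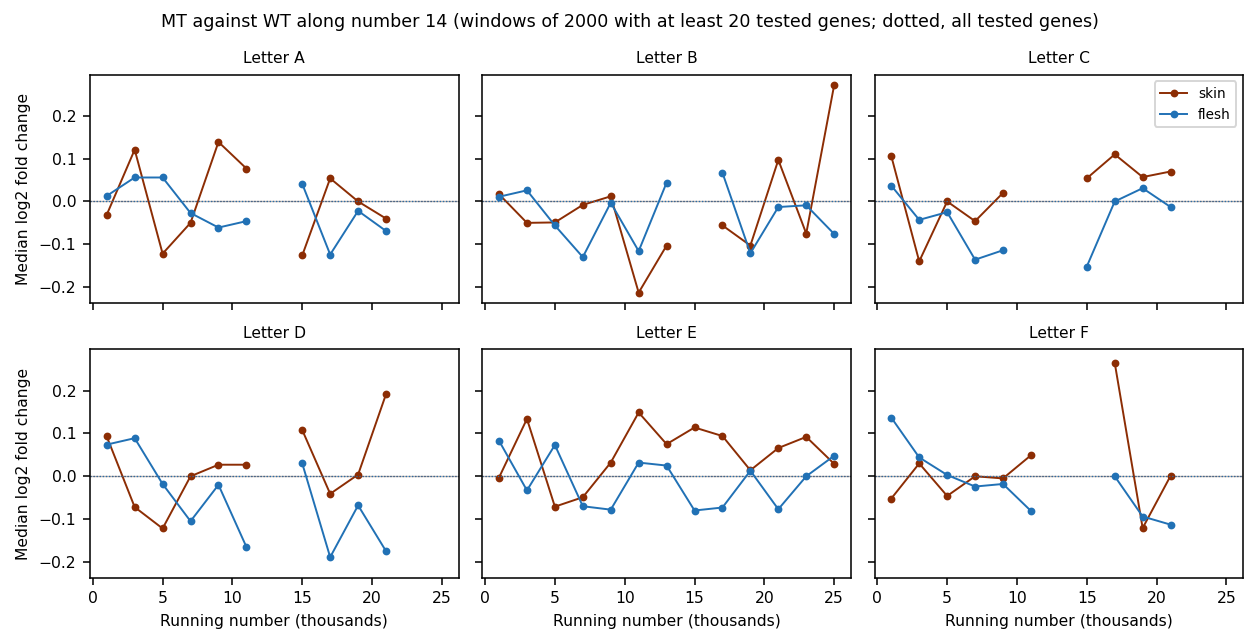
Median log2 fold change of MT over WT (vertical axis) in windows of 2000 running numbers (horizontal axis, running number divided by 1000) on each letter, with skin in brown and flesh in blue; dotted lines give the medians over all tested genes, and windows with under 20 tested members are left out. In flesh the windows from 6000 to 8000, 8000 to 10000 and 20000 to 22000 lie below 0 on all 6 letters, between -0.175 and -0.003.

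Along the running number, the genotype differences were small and followed no common course over the letters in skin. Window medians ran from -0.213 to 0.272 in skin and from -0.189 to 0.137 in flesh. In flesh, the windows from 6000 to 8000, 8000 to 10000 and 20000 to 22000 were below 0 on all 6 letters, with pooled medians of -0.086, -0.051 and -0.062, and the window from 0 to 2000 was above 0 on all 6, at 0.052. In the window from 6000 to 8000, 2 members were higher and 9 lower in MT flesh, of 478 tested. That window held 23.2% of the net loss of share in MT flesh and 10.9% of the members.

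In skin the highest window medians were on B from 24000 to 26000 (0.272) and on F from 16000 to 18000 (0.265), and the lowest on B from 10000 to 12000 (-0.213) and on C from 2000 to 4000 (-0.14). These windows held 0 to 2 members called higher and 0 to 2 called lower, and in flesh, which shares no library with skin, their medians were -0.076, 0, -0.116 and -0.043. In flesh the extremes were F from 0 to 2000 (0.137) and D from 2000 to 4000 (0.089), and D from 16000 to 18000 (-0.189) and from 20000 to 22000 (-0.175), with skin medians of -0.052, -0.072, -0.041 and 0.192. Only for the lowest windows in skin and the D window from 16000 to 18000 did the sign recur in the other tissue.

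**Figure D5:**
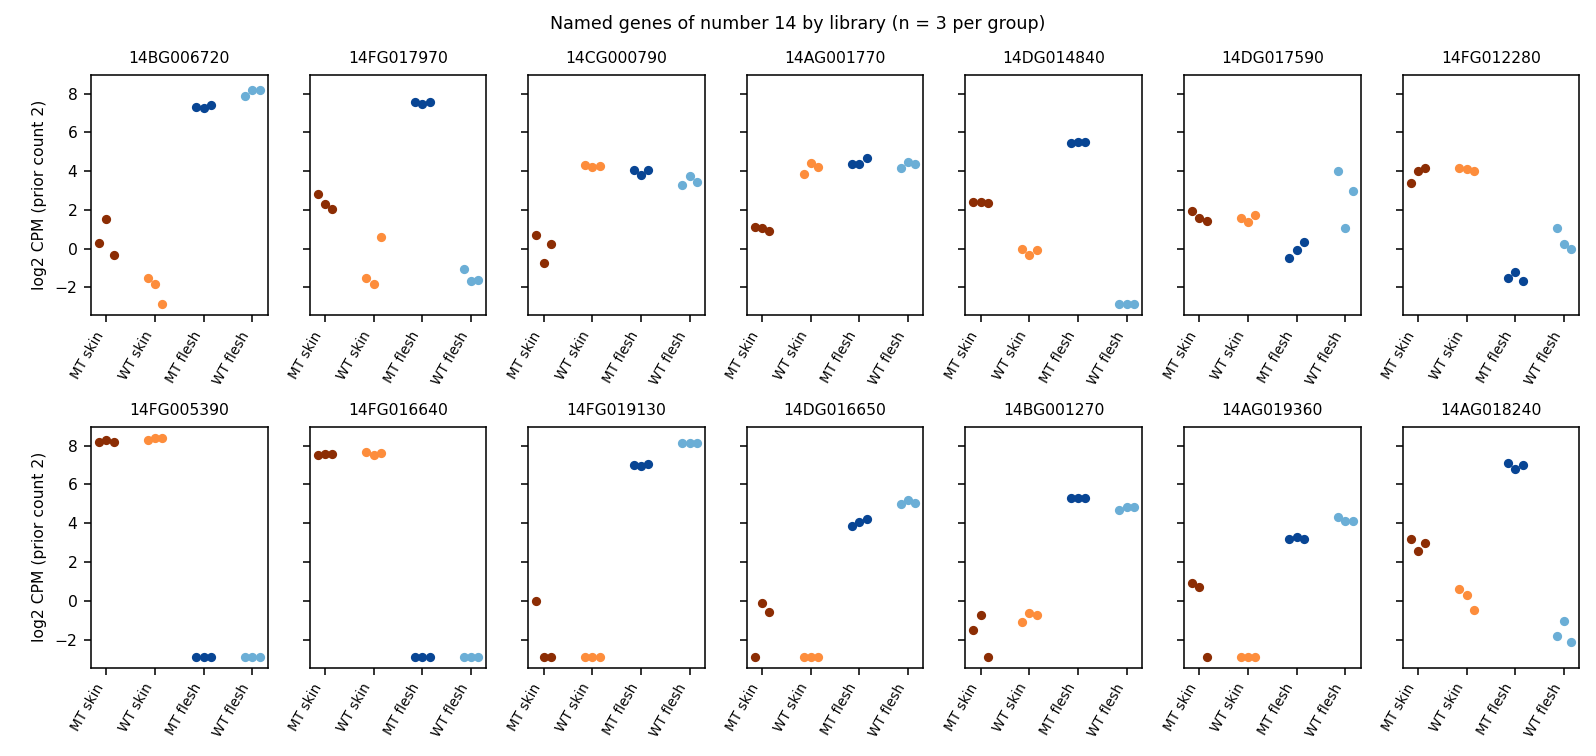
Level of each named gene (vertical axis, log2 CPM with a prior count of 2) in the 3 libraries of MT skin, WT skin, MT flesh and WT flesh; points are libraries, and a library at 0 counts lies at -2.88 on this axis. The panels of 14FG017970, 14AG018240 and 14DG014840 have MT flesh as the highest group, and those of 14CG000790 and 14AG001770 have MT skin as the lowest.

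Few changes were shared by the tissues on number 14. Higher in MT in both skin and flesh were 24 tested members, 0.557% against 1.1% of all tested genes, and lower in both were 8, 0.186% against 0.235%. The 24 were 20.7% of the members that rose in skin and 24.2% of those that rose in flesh. Over all tested genes 887 rose in both tissues, of 2923 that rose in skin and 3016 that rose in flesh. A further 13 members of number 14 went in opposite directions, 0.302% against 0.407%. These contrasts share no library. Called in at least 1 tissue were 332 tested members, 7.71% against 10.1%.

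The interaction asks, gene by gene, whether the MT difference in skin was the same as in flesh. On number 14 the balance was unlike that over all genes: for 76 tested members the MT difference was higher in skin than in flesh and for 72 it was lower, or 1.76% and 1.67%. Over all tested genes these were 1.46% and 3.08%, and 4.55% in either direction. The percentage higher was the largest of the 15 numbers and the percentage lower the smallest, with the other numbers between 1.21% and 1.74% and between 2.53% and 4.34%. With DESeq2 the counts were 139 and 116 (14th and 1st from the lowest of 15), when scaled by totals 96 and 63 (14th and 1st), and with replicate number as a block 56 and 55 (13th and 1st). The number higher was 50 without WT skin replicate 1, 48, 44 and 50 without MT flesh replicates 1, 2 and 3, and 47 and 48 without WT flesh replicates 2 and 3. The interaction is built from the same libraries as the tissue difference on which number 14 was selected. Its balance is thus not independent of that selection, and no test was made of the number as a whole.

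Among called members whose mean log2 CPM was at least 1, the largest positive interactions were in genes with 0 counts in WT skin. For these the fitted size depends on the prior count of the fit and is no bound. Ibat.Brg_v3.14AG019360 had 16, 13 and 0 counts in MT skin and none in WT skin, with 8.93, 9.58 and 8.88 CPM in MT flesh and 19.5, 17 and 17.3 CPM in WT flesh (interaction 8.01 on the log2 scale, adjusted p = 0.0087 by edgeR's test). 14DG016650, described above, had 6.71 (adjusted p = 0.023), and the call was lost without MT skin replicate 2 (adjusted p = 0.098), MT skin replicate 3 (0.064) or WT skin replicate 2 (0.069). In both genes the MT flesh libraries lay below the WT flesh libraries, though for 14AG019360 that difference did not pass the test (log2 fold change -0.97, adjusted p = 0.27). The largest negative interactions under this limit were 14DG014840 at -9.64 (adjusted p = 1.9e-07) and 14AG018240 at -6.39 (adjusted p = 2.4e-06), which rose in both tissues and far more in flesh. By window, the interaction medians were highest on F from 16000 to 18000 (0.326) and B from 24000 to 26000 (0.322) and lowest on F from 0 to 2000 (-0.233) and E from 4000 to 6000 (-0.164), with 0 or 1 members called higher and 0 to 2 called lower in each.

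Members of equal length on different letters were compared as possible copies. Lengths that occurred once on a letter gave 309 pairs of tested members within 3000 running numbers of each other, from 533 genes. For skin against flesh in MT, both partners were called in 75 pairs, 13 with both higher, 38 with both lower and 24 in opposite directions; in WT there were 78, with 10, 43 and 25. A single partner was called in 152 pairs in MT and in 145 in WT. For MT against WT both were called in 5 pairs in skin and in 4 in flesh. Single members were often called for tissue, 2102 of the 4307 tested in MT and 2085 in WT. Many pairs of unrelated members would thus also have both called, and no comparison with such pairs is given here. Pairs share neither proven ancestry nor independent reads, so these counts are a description.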

How the data were processed

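RNA was extracted with TRIzol, depleted of ribosomal RNA, enriched on oligo(dT) beads and sequenced as NEBNext Ultra libraries on an Illumina NovaSeq instrument, per the labels' protocols. The authors deposited raw counts per gene and library and a length for each gene, as the file headers show. Per the submitters' processing notes the tools included featureCounts, HISAT2 2.0.5 and DESeq2 1.40.2; what each did is not given in the sources used here. The same holds for the genome build, annotation, strand setting and treatment of reads with several matches. A reference table of 175826 genes of another assembly (IBA_r1.0) matched 0 of the identifiers.

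All 12 libraries and 4 groups, taken from the sample titles, were fitted together in R 4.3.3 by edgeR 4.0.16. Low genes were removed with filterByExpr (minimum count 10), libraries scaled by TMM, and contrasts tested with the quasi-likelihood test, adjusted by Benjamini-Hochberg over all 80351 tested genes at 0.05. Values of number 14 were then read from that fit. The SE of a log2 fold change is its size over the square root of the F statistic, an approximation. Log2 CPM used a prior count of 2. A fold against a group at 0 counts is a lower bound against 3 counts over that group and covers counting error only. The procedure was tried on simulated counts with the same spread for every gene and changes placed in MT skin alone. They held no general difference between skin and flesh, so that run does not cover the tissue contrasts. Genes were named by rule: adjusted p under 0.05, mean log2 CPM of at least 1 and, except for the interaction, libraries of the groups that do not overlap, the 2 highest and 2 lowest log2 fold changes per contrast; windows likewise by their medians. The members, the rule and the windows were chosen with earlier results of these data known. DESeq2 1.42.0, library totals alone, other filters, a replicate block, single libraries left out and other window widths were tried.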

Additional observations from a re-analysis of the deposited data

Results flagged for a closer look

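Among the named genes of number 14, 10 had a log2 fold change of MT over WT that differed between the tissues when the interaction was tested with edgeR. Each value subtracts the flesh value from the skin value. It was 4.24 for Ibat.Brg_v3.14BG006720 (adjusted p = 0.0017), which rose in MT skin and fell in MT flesh. It was -4.71 for Ibat.Brg_v3.14CG000790 (adjusted p = 1.2e-06) and -3.41 for Ibat.Brg_v3.14AG001770 (adjusted p = 1.9e-06), both lower in MT skin. It was -6.23 for Ibat.Brg_v3.14FG017970 (adjusted p = 0.00055), -6.39 for Ibat.Brg_v3.14AG018240 (adjusted p = 2.4e-06) and -9.64 for Ibat.Brg_v3.14DG014840 (adjusted p = 1.9e-07), which rose most in MT flesh. It was 2.2 for Ibat.Brg_v3.14FG012280 (adjusted p = 0.02) and 3.41 for Ibat.Brg_v3.14DG017590 (adjusted p = 0.025), lower in MT flesh. It was 6.71 for Ibat.Brg_v3.14DG016650 (adjusted p = 0.023) and 8.01 for Ibat.Brg_v3.14AG019360 (adjusted p = 0.0087). For these last genes and 14DG014840 a group was at 0 counts, so the size depends on the prior count of the fit. All 10 were named for a called interaction or for an extreme MT difference within a tissue. Such calls among them thus follow in large part from the naming rule. Over all tested genes 4.55% had a called interaction.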

How the results depend on the processing

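The tissue lean of number 14 kept its direction under every alternative run. With library totals alone the medians of number 14 were -0.468 (all genes -0.336) in MT and -0.526 (-0.355) in WT for skin over flesh and -0.127 (-0.09) for MT over WT in flesh, with 108 members lower in MT flesh. DESeq2 made more calls between the lines: 209 higher and 160 lower in skin, 107 lower in flesh, and 139 higher and 116 lower for the interaction. With no filter beyond 1 count, 89 members were lower in MT flesh and 121 lower for the interaction, and the tissue medians were -0.352 in MT and -0.246 in WT. The MT tissue median was -0.161 with a minimum count of 30 and -0.224 for members with at least 100 counts. From mean log2 CPM it was -0.278 with a prior count of 0.5 and -0.247 with 2, and that of WT was -0.234 with 0.5.

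Leaving out each library in turn gave 70 to 104 members higher and 76 to 92 lower in MT skin, 63 to 101 higher and 27 to 62 lower in MT flesh, and 44 to 66 higher and 49 to 70 lower for the interaction. For skin against flesh it gave 800 to 917 higher and 1072 to 1264 lower in MT and 783 to 927 higher and 1073 to 1282 lower in WT. The medians ran from -0.284 to -0.181 in MT and -0.247 to -0.182 in WT for tissue, and from -0.005 to 0.001 in skin and -0.038 to -0.001 in flesh for genotype. Fewer libraries enter these fits; the cause was otherwise not tested. Of the 20 pairs of gene and contrast chosen by the naming rule, 1 lost its call, the interaction of 14DG016650, in 3 of these fits; calls of the named genes in their other contrasts were not refitted. With windows of 1000, 2000 and 4000, 63.2%, 71.4% and 75.7% lay under the median of all genes for tissue in MT and 73.6%, 74.6% and 81.1% in WT.

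Same-numbered libraries showed no shared deviation: correlations of their deviations from group means lay between -0.017 and 0.015. This cannot exclude that same-numbered samples were paired, which the sources used here do not state. With replicate number as a block, 81 members were higher and 80 lower in MT skin and 82 higher and 42 lower in MT flesh.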
